A study of Canis lupus familiaris with 12 samples.

Results

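Snail and Slug, zinc finger proteins, were set against E47, a basic helix-loop-helix protein, through the genes that MDCK cells carrying each of these repressors expressed at different levels. MDCK is an epithelial cell line from dog kidney. The groups were the Snail transfectant and the Slug transfectant, with 4 arrays each, and the E47 transfectant, with 4 arrays, so all 12 arrays of the series entered. Every array was a 2-colour hybridisation of a transfectant with the MDCK-CMV control, and each transfectant had samples numbered 1 and 2 with 2 arrays apiece, titled Cy5 and Cy3. The comparison was the mean of the Snail and Slug group means (4 replicates) minus the E47 mean (2 replicates), where a replicate is the mean of the 2 arrays of a numbered sample. A gene was reported only where Snail and Slug lay on the same side of E47, which held for 1791 of 3537 genes tested (50.6%). Among these, 12 genes passed an adjusted p of 0.05 and are described here, 11 lower and 1 higher in the zinc finger transfectants.

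Snail and Slug bind E-box sequences in DNA through their zinc fingers and are known to recruit corepressors to the promoter of CDH1, the gene of the adhesion protein E-cadherin. E47, a product of the TCF3 gene, binds E-boxes as a dimer through its basic region, and ID proteins, which lack that region, pair with such factors and keep them from DNA. In epithelial cells all of these repressors are known to set off an epithelial to mesenchymal transition, in which junctions are lost and matrix genes and motility are gained.

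Values are log2 ratios of transfectant to control, so a difference of 1 between groups is a doubling, and they hold no absolute level: whether MDCK cells express an epithelial marker at all cannot be read from them. The labels do not say whether a transfectant was 1 clone or a pool, whether samples 1 and 2 were separate cultures, or whether the control RNA was a single pool, so the p-values measure the spread between these samples only. Of 13056 probes, between 10654 and 12982 had a value on an array. Across genes, the correlation of replicate 1 with replicate 2 was 0.66 for Snail, 0.73 for Slug and 0.75 for E47. The probes are named in the platform annotation by human gene symbols while the RNA was from dog, and binding of related transcripts was not tested.

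The direction of the deposited ratios could not be taken from the labelled dyes. Arrays of the same transfectant that ran the same way as deposited correlated with r between 0.26 and 0.68 (7 pairs), and those that ran opposite ways with r between -0.74 and -0.37 (11 pairs). Both arrays of Snail 2, both of Slug 1 and the E47 2 array titled Cy5 were therefore multiplied by -1 and the other 7 were kept. These signs were set with the values in view and put CDH1 below the control in each transfectant, so each direction given here is an assumption, and CDH1 below the control is a product of that choice. Turning the signs of all transfectants together would exchange "higher" and "lower" throughout and leave the sizes as they are. Turning only E47 gave 704 genes past the threshold (376 higher and 328 lower). Turning only Snail gave 87 (29 and 58), and turning only Slug gave 527 (161 and 366), so the 12 genes hold for the assumed signs. Counted in either direction, 7 of the 12 passed with E47 turned, and 7 each with Snail or Slug turned. With E47 turned, the difference changed its sign for 7 of the 12, among them GAS1 (3.27) and ITGA7 (2.16), and kept it for 5. A pass with E47 turned can therefore be in the reverse direction.

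The 12 genes are 0.339% of the 3537 tested, the 11 lower ones 0.311% and the 1 higher one 0.0283%. An unadjusted p under 0.05 was reached by 433 genes. GAS1, an anchored surface protein known from growth arrest and as a partner in Hedgehog reception, was 6.23-fold lower in the zinc finger transfectants, and LUM, a collagen-binding proteoglycan, 6.92-fold higher. The 10 others were lower by 2.17-fold to 4.18-fold: the laminin receptor chains ITGA7 and ITGA6, the desmosome protein gene DSP, the signalling genes GNAI1, SPRY2 and EREG, the nuclear receptor gene PPARG, PLA2G7, APLP2 and C8orf76. In all 12 the 4 zinc finger replicates lay beyond both E47 replicates, which the naming rule asks. Over all genes tested, the 4 zinc finger replicates lay below both E47 replicates in 349 (9.87%) and above both in 201 (5.68%). When Snail and Slug replicates were treated as 1 group of 4, so that their own difference counts as spread, GAS1 alone passed (adjusted p = 0.00521). Of the 12, 4 passed without Snail replicate 2, and 2 without E47 replicate 2, where 4 genes passed in all. Without E47 replicate 1, 14 genes passed and 5 of the 12 were among them.

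**Figure D1:**
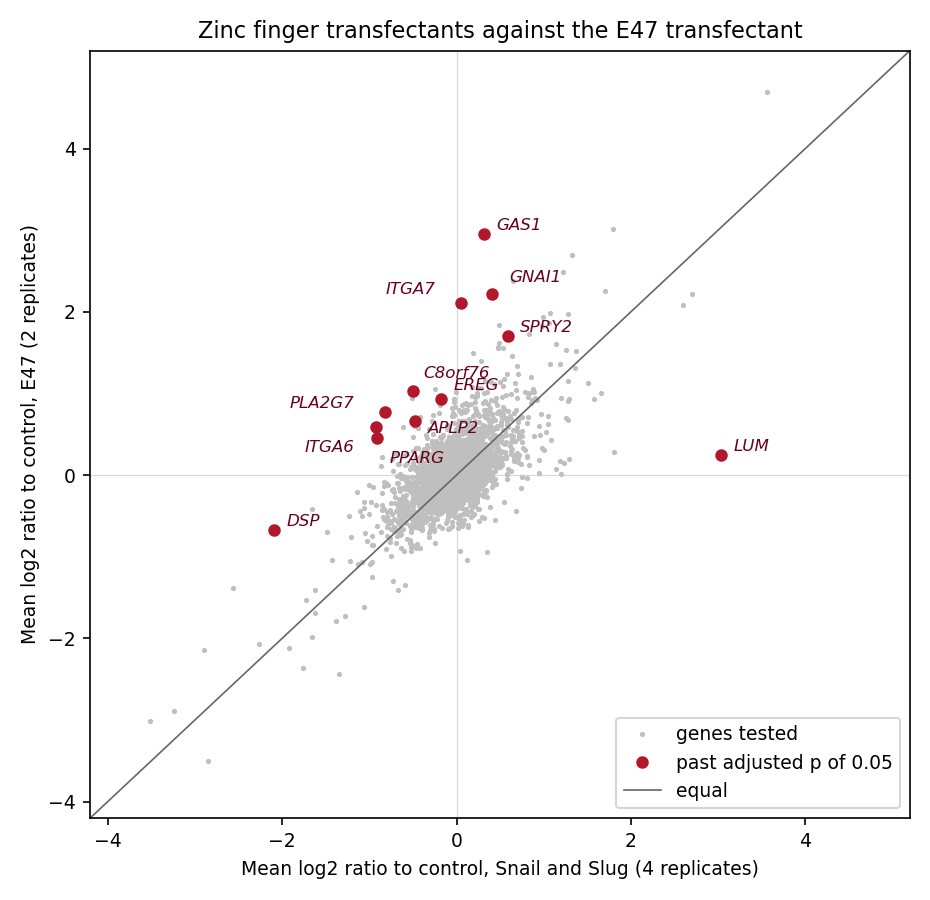
Mean log2 ratio to control in Snail and Slug (horizontal axis, 4 replicates) and in E47 (vertical axis, 2 replicates) for 3537 genes (grey points), with the 12 genes past adjusted p of 0.05 in red and the line of equal values. LUM lies right of the line at 3.04 in the zinc finger transfectants and 0.25 in E47, and the other 11 lie above it, GAS1 farthest with 0.31 and 2.95.

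The position relative to the control sorted the 12 genes into kinds, with a departure set at an absolute log2 ratio of 0.5. The E47 mean departed and the joint mean of Snail and Slug did not for 5 genes (GAS1, ITGA7, GNAI1, EREG and APLP2), and the joint mean alone departed for 2 (LUM and PPARG). The joint mean hides departures of single transfectants: GNAI1 was at 0.72 in Snail (adjusted p against the control = 0.0306) and APLP2 at -0.75 in Slug (adjusted p = 0.00568). Both means departed on opposite sides for 3 (PLA2G7, ITGA6 and C8orf76, whose zinc finger mean of -0.50 lies at that limit) and on the same side for 2 (DSP and SPRY2). Single transfectants fell short of 0.5 here as well: ITGA6 (-0.31), C8orf76 (-0.44) and SPRY2 (0.45) in Slug, and PLA2G7 (-0.497) in Snail. For ITGA6 the E47 mean did not pass against the control (adjusted p = 0.0662). Against the control, 9 of the 12 passed in E47, 8 higher and 1 lower, where 5.30% of all genes tested passed. In Snail 6 passed, 3 higher and 3 lower (7.22% of all genes), and in Slug 6 passed, 2 higher and 4 lower (21.8%). These counts share the replicates that chose the genes, so nothing is read from them.

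GAS1 had log2 ratios of 0.19 and 0.25 in Snail and of 0.53 and 0.29 in Slug, against 3.20 and 2.70 in E47. The zinc finger replicates stayed near the control while both E47 replicates lay high, with a wide gap between the groups. The means were 0.31 ± 0.15 (SD, n = 4) and 2.95 ± 0.36 (SD, n = 2), a difference of -2.64 ± 0.18 (SE; adjusted p = 0.00232). The gap was present in both clones of the gene, at -3.09 and -2.18. The clones were close in E47 1, at 3.13 and 3.28, but far apart in E47 2, at 3.89 and 1.52. The E47 2 value of 2.70 is the mean of the latter pair. On single arrays GAS1 lay between 0.05 and 0.81 in the zinc finger transfectants and between 2.47 and 3.48 in E47, so no array of one side reached the other.

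GNAI1, an inhibitory G protein alpha subunit, had 0.54 and 0.91 in Snail and 0.21 and -0.01 in Slug, against 2.02 and 2.41 in E47. Snail lay somewhat above the control and Slug at it, with E47 above both. The means were 0.41 ± 0.40 (SD, n = 4) and 2.21 ± 0.27 (SD, n = 2), and the difference was -1.80 ± 0.19 (SE; adjusted p = 0.0153). The difference from E47 was -1.49 ± 0.22 for Snail and -2.12 ± 0.22 for Slug; Snail minus Slug was 0.63 ± 0.22 and did not pass (adjusted p = 0.0951).

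SPRY2, a feedback inhibitor of receptor tyrosine kinase signalling, was above the control in every replicate. It had 0.67 and 0.77 in Snail and 0.53 and 0.37 in Slug, against 1.62 and 1.79 in E47. The Slug means hide arrays that differ: the Cy3-titled ones were at 0.99 and 0.99, the Cy5-titled ones at 0.08 and -0.24. The groups did not overlap, and the difference was -1.12 ± 0.15 (SE; adjusted p = 0.0226). It lost its call in 8 of 20 alternatives, more than any other of the 12. EREG encodes epiregulin, a ligand of the EGF receptor. EREG had -0.50 and -0.37 in Snail and 0.03 and 0.13 in Slug, against 1.03 and 0.85 in E47, a difference of -1.11 ± 0.15 (SE; adjusted p = 0.0226). Only the E47 replicates lay clearly above the control.

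ITGA7, a laminin receptor chain known best from muscle, had 0.32 and -0.15 in Snail and 0.26 and -0.23 in Slug, against 1.82 and 2.41 in E47. Snail and Slug scattered around the control, and the difference was -2.06 ± 0.24 (SE; adjusted p = 0.0153). Snail minus E47 was -2.03 ± 0.28 and Slug minus E47 -2.10 ± 0.28, nearly the same distance.

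ITGA6, the laminin receptor chain that pairs with the beta-4 chain in hemidesmosomes, had -1.59 and -1.49 in Snail and -0.55 and -0.08 in Slug, against 0.45 and 0.74 in E47. Here Snail lay far below the control and Slug between Snail and E47. The pooled difference was -1.52 ± 0.18 (SE; adjusted p = 0.0154), made of -2.13 ± 0.21 for Snail (adjusted p = 0.00857) and -0.90 ± 0.21 for Slug, which did not pass by itself (adjusted p = 0.103). Snail minus Slug was -1.23 ± 0.21 and passed (adjusted p = 0.0140).

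DSP encodes desmoplakin, which ties desmosomes to keratin filaments. DSP had -2.38 and -2.64 in Snail and -1.63 and -1.71 in Slug, against -0.63 and -0.71 in E47. All 6 replicates lay below the control, deepest in Snail and least in E47, with no overlap between any of the transfectants. The means were -2.09 ± 0.50 (SD, n = 4) and -0.67 ± 0.06 (SD, n = 2), and the difference was -1.42 ± 0.15 (SE; adjusted p = 0.0153), 2.68-fold. Snail minus Slug was -0.84 ± 0.18 (adjusted p = 0.0231).

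LUM, lumican, was the single gene that passed upward, and it did not pass with robust moderation and a trend (adjusted p = 0.115). LUM had 1.57 and 2.74 in Snail and 3.73 and 4.12 in Slug, against 0.06 and 0.44 in E47. Both zinc finger transfectants lay above the control, Slug more than Snail, while E47 stayed near it. The difference was 2.79 ± 0.31 (SE; adjusted p = 0.0153), with 1.91 ± 0.36 for Snail, 3.68 ± 0.36 for Slug and -1.77 ± 0.36 for Snail minus Slug (adjusted p = 0.0224). Single arrays ran from 1.30 to 4.23 in the zinc finger transfectants and from -0.27 to 0.50 in E47.

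**Figure D2:**
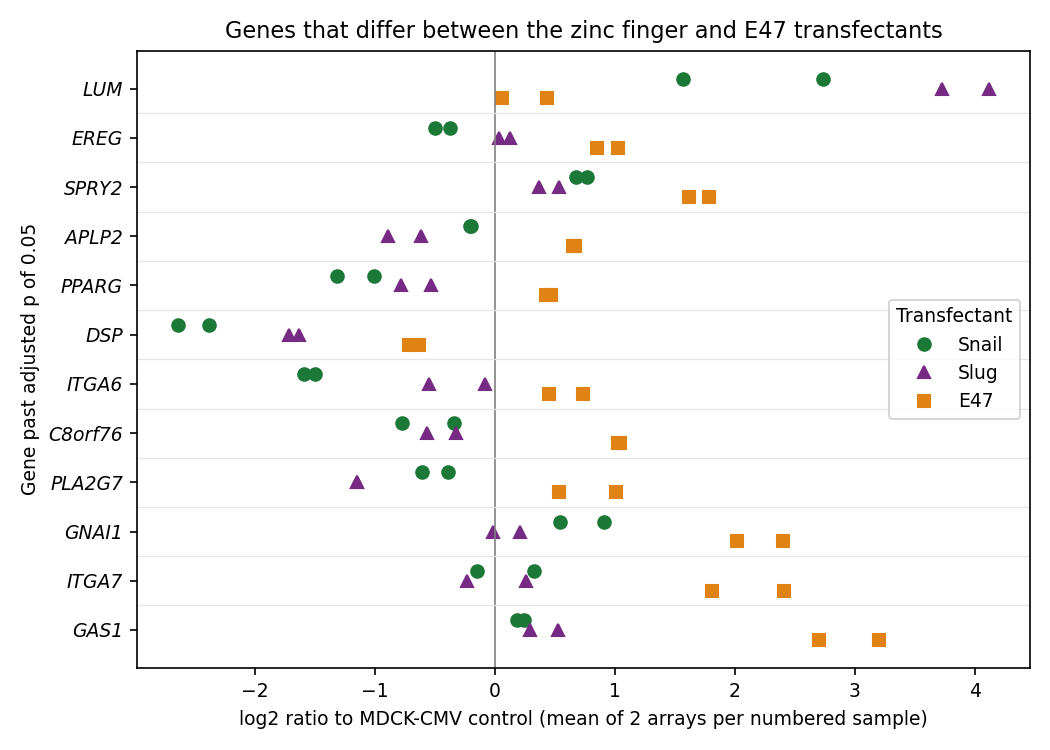
Log2 ratio to control (horizontal axis) of the 12 genes past adjusted p of 0.05 (vertical axis) in each replicate of Snail (circles), Slug (triangles) and E47 (squares). The zinc finger replicates lie left of the E47 replicates for 11 genes and right of them for LUM, and for ITGA6, DSP and LUM Snail and Slug lie apart from each other as well.

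The remaining 4 genes lay below or near the control in Snail and Slug and above it in E47. PPARG, a nuclear receptor known from fat cell differentiation, had -1.003 and -1.32 in Snail and -0.78 and -0.53 in Slug, against 0.47 and 0.43 in E47, a difference of -1.36 ± 0.16 (SE; adjusted p = 0.0154). PLA2G7, the enzyme that breaks down platelet-activating factor, had -0.39 and -0.60 in Snail and -1.15 and -1.14 in Slug, against 1.01 and 0.54 in E47, a difference of -1.59 ± 0.18 (adjusted p = 0.0153). Both genes had replicates on opposite sides of the control in the zinc finger and E47 transfectants. The PPARG mean in E47 (0.45) stayed under the limit of 0.5 set for a departure. On single arrays the PPARG groups did not overlap (-1.49 to -0.49 against 0.32 to 0.54), whereas for PLA2G7 1 Snail array reached 0.35 and the lowest E47 array was at 0.33.

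C8orf76, an open reading frame named in the annotation by its human locus, had -0.78 and -0.34 in Snail and -0.57 and -0.32 in Slug, against 1.03 and 1.04 in E47, a difference of -1.53 ± 0.18 (SE; adjusted p = 0.0153). APLP2, a relative of the amyloid precursor protein, had -0.20 and -0.20 in Snail and -0.62 and -0.89 in Slug, against 0.66 and 0.67 in E47, a difference of -1.14 ± 0.15 (adjusted p = 0.0226). For both genes the E47 replicates lay apart from the zinc finger ones. The closeness of the APLP2 means hides arrays that differ: zinc finger arrays ran from -0.95 to -0.09, E47 1 was at 0.03 on its Cy3-titled and at 1.28 on its Cy5-titled array, and E47 2 was at 0.57 and 0.77.

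Snail and Slug differed from each other by the same test for 3 of the 12 genes (ITGA6, DSP and LUM), where 13.2% of all genes tested differed between them. Seen singly, the 12 genes had differences from E47 of the same sign in both transfectants, which the rule fixes; by their own contrasts all 12 passed in Snail minus E47 and 8 in Slug minus E47, the others being ITGA6 and EREG, and DSP and PPARG with adjusted p = 0.0546 and 0.0507. Over all genes tested, 93 of 3617 passed in Snail minus E47 and 30 of 3816 in Slug minus E47. These contrasts share their samples with the pooled one, which chose the 12 genes, so nothing is read from the counts. For GAS1, ITGA7 and C8orf76 the Snail and Slug differences from E47 lay within 0.20 of each other (Snail minus Slug -0.19, 0.07 and -0.11).

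**Figure D3:**
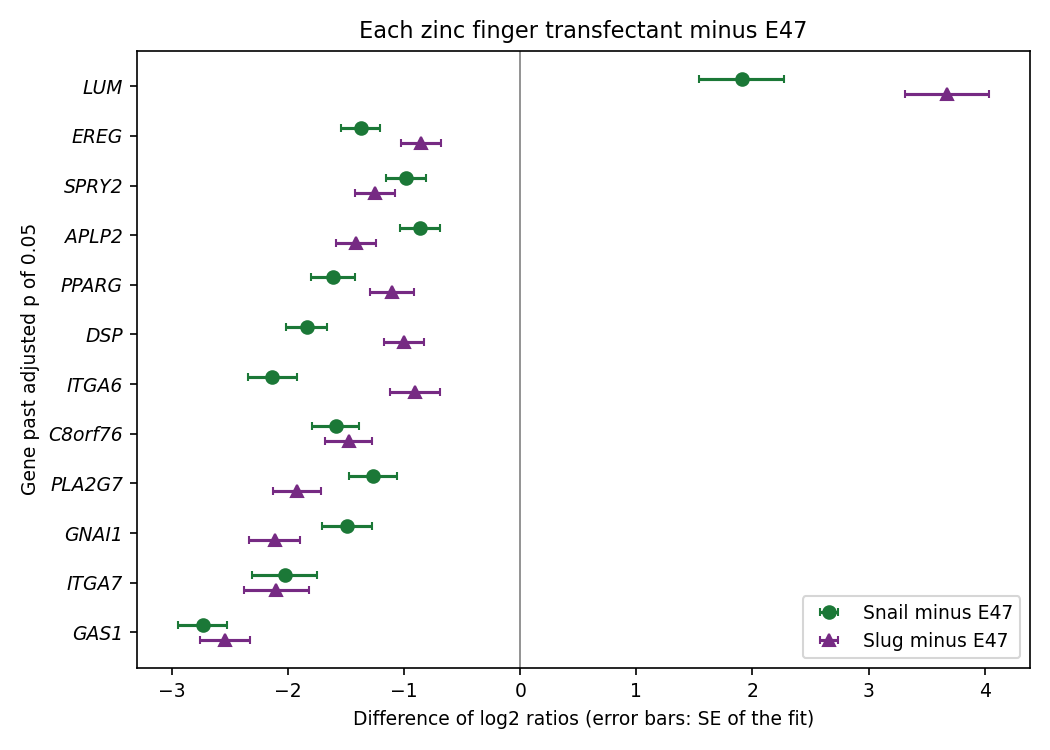
Difference of log2 ratios from E47 for Snail (circles) and Slug (triangles) with SE of the fit, for the 12 genes past adjusted p of 0.05. The pairs lie together for GAS1, ITGA7 and C8orf76 and apart for ITGA6 (-2.13 and -0.90), DSP (nearer E47 in Slug) and LUM (1.91 and 3.68).

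The ID genes, the inhibitors that pair with helix-loop-helix factors such as E47, were lower in the zinc finger transfectants in every replicate, but none passed. ID4 had 0.16 and -0.05 in Snail and 0.35 and 0.30 in Slug, against 1.17 and 1.82 in E47, a difference of -1.31 ± 0.20 (SE; adjusted p = 0.0543). ID2 had -0.11 and -0.04 in Snail and -0.37 and -0.46 in Slug, against 0.70 and 1.42 in E47, a difference of -1.30 ± 0.21 (adjusted p = 0.0557). Both lie just outside the threshold, and their zinc finger replicates lay near or below the control.

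ID3 had 0.20 and 0.25 in Snail and 0.86 and 0.82 in Slug, against 1.15 and 1.97 in E47, a difference of -1.02 ± 0.23 (SE; adjusted p = 0.118). ID1 had -0.04 and -0.27 in Snail and 0.31 and 0.27 in Slug, against 0.51 and 1.20 in E47, a difference of -0.79 ± 0.21 (adjusted p = 0.157). For all 4 genes E47 replicate 1 was the lower of the E47 replicates. Without it the differences were -1.63 for ID4, -1.66 for ID2, -1.44 for ID3 and -1.13 for ID1. Without E47 replicate 2 they were -0.98 for ID4, -0.94 for ID2, -0.61 for ID3 and -0.44 for ID1, so their sizes turn on which E47 sample is used. The calls moved with the processing too: over 20 alternatives ID2 and ID4 each passed in 8, ID3 in 3 and ID1 in 2. With both E47 samples kept and the median over all spots of a gene, ID2 and ID4 passed in limma (adjusted p = 0.0383 and 0.0284). With E47 sample 1 read from its Cy5-titled array alone, a setting chosen after seeing the data, all 4 passed, at adjusted p between 0.00625 and 0.0361. That setting raised the calls in general, to 57 of 3628 genes tested from 12 of 3537 in the main fit. All clones of ID2 and ID4 had the same sign: ID2 had -1.23, -0.73 and -1.96, and ID4 -1.53 and -1.08.

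**Figure D4:**
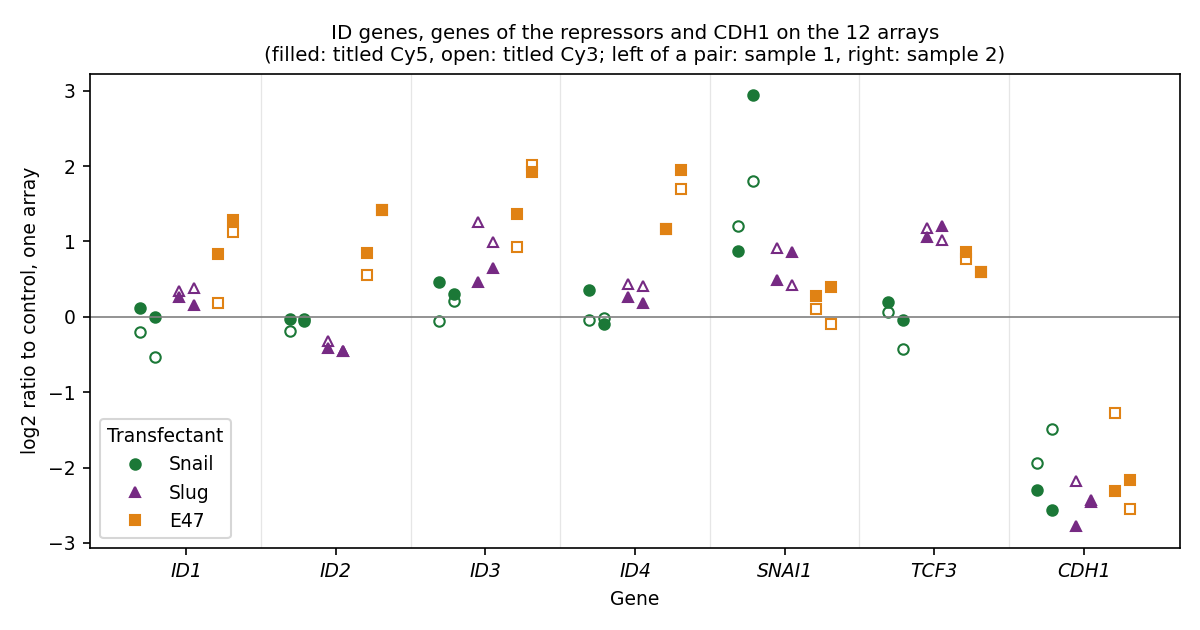
Log2 ratio to control on each of the 12 arrays (vertical axis) for the ID genes, SNAI1, TCF3 and CDH1 in Snail (circles), Slug (triangles) and E47 (squares), filled where the array is titled Cy5. ID2 and ID4 arrays of E47 lie above all zinc finger arrays, ID1 and ID3 arrays overlap, and CDH1 lies below the control on every array by the choice of signs.

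Of the genes of the repressors themselves, SNAI1, which encodes Snail, had 1.04 and 2.37 in Snail and 0.70 and 0.64 in Slug, against 0.19 and 0.15 in E47. The zinc finger replicates all lay above E47, but the difference of 1.01 ± 0.32 (SE) did not pass (adjusted p = 0.241), with the Snail replicates far apart. TCF3, which encodes E47, had 0.13 and -0.23 in Snail and 1.12 and 1.11 in Slug, against 0.82 and 0.60 in E47. Snail lay below E47 and Slug above it, so TCF3 is on no common side (difference -0.18 ± 0.17; adjusted p = 0.742), and Snail minus Slug was -1.17 ± 0.19 (adjusted p = 0.0122). The species and sequence of the introduced cDNAs are not in the labels, and a signal from them could not be separated from that of the cells' own genes. SNAI2, which encodes Slug, was not analysed, as no probe carried its symbol alone.

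CDH1, whose repression these factors are known to share, had -2.12 and -2.03 in Snail and -2.48 and -2.44 in Slug, against -1.79 and -2.36 in E47. These are means over its 3 clones, with the signs assumed above. The groups overlapped, and the difference was -0.19 ± 0.19 (SE; adjusted p = 0.754). By clone it was -0.30, -0.07 and -0.20. The first 2 clones were at -3.04 and -3.85 in the zinc finger transfectants and at -2.74 and -3.77 in E47. The third clone, at 0.09 in the zinc finger transfectants and 0.29 in E47, lay near the control in all of them. The means over 3 clones are therefore smaller in size than those of the first 2. The sign of the CDH1 difference turned to 0.18 with arrays scaled to 1 spread.

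In the upward direction LUM alone passed, and the naming rule adds the 4 genes with the next smallest p, none of which passed. PLAU, the urokinase protease, had 0.50 and 0.43 in Snail and 0.13 and 0.34 in Slug, against -0.55 and -1.34 in E47, a difference of 1.29 ± 0.23 (SE; adjusted p = 0.0768). SH3KBP1, an adaptor in receptor endocytosis, had 0.37 and 0.53 in Snail and 1.14 and 1.19 in Slug, against 0.07 and -0.14 in E47, a difference of 0.84 ± 0.15 (adjusted p = 0.0801). The PLAU replicates lay above the control in Snail and Slug and below it in E47, while SH3KBP1 lay highest in Slug. On single Slug arrays PLAU was at 0.44 and 0.68 (titled Cy3) but at -0.18 and -0.005 (titled Cy5). ALKBH7 differed by 0.99 ± 0.20 (adjusted p = 0.100) and FBXO4, an F-box protein of ubiquitin ligases, by 0.68 ± 0.14 (adjusted p = 0.100).

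Genes on either side of the threshold had differences of similar size, with a step in adjusted p between them. The last gene inside was SPRY2 (adjusted p = 0.0226) and the first outside SAMD9L, which had 0.43 and 0.30 in Snail and -0.47 and -0.39 in Slug, against 0.89 and 0.90 in E47 (-0.92 ± 0.14; adjusted p = 0.0543). Between 0.0543 and 0.0624 followed, beside ID4 and ID2, DOCK4 (-1.09), TTF2 (-1.02), GAS7 (-0.96), GGCT (-1.05) and the metallothionein gene MT1X (-1.35), all with non-overlapping groups and lower in Snail and Slug. These were named after their values were seen. HDGF (-1.01; adjusted p = 0.0557) is not counted, since Snail had -1.61 and -1.29 and Slug 0.98 and 0.85, on either side of 0.64 and 0.84 in E47.

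In 20 gene lists between 0 and 2 members passed, where 0.311% of all genes tested passed lower and 0.0283% higher. With lists this short, a single gene makes a share of several percent. At an unadjusted p under 0.05 the share over all genes was 12.2% (433 of 3537). The median difference of most lists lay near that of all genes tested (-0.03). Beyond the genes already described, members were picked as examples after their values were seen. The list of helix-loop-helix factors and their inhibitors had the lowest median, -0.85 over 8 genes tested, with 0 passing in either direction in limma, 4 at an unadjusted p under 0.05, and the zinc finger replicates below both E47 replicates in 4 of 8 (the ID genes; 9.87% of all genes). This order rests on the sign assumed for E47: with E47 turned, the median of the list was 1.89, that of all genes 0.01, and the ID differences were 0.92 for ID1, 0.82 for ID2, 2.10 for ID3 and 1.68 for ID4. The rest of that list was mixed: TWIST1, a mesodermal helix-loop-helix gene, had 0.26 and 0.34 in Snail and 1.48 and 2.19 in Slug, against 1.21 and 2.77 in E47 (adjusted p = 0.411). TCF4 differed by 0.66 (adjusted p = 0.691) and BHLHE40 by -0.17 (adjusted p = 0.838).

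EMT transcription factors had 0 of 6 passing in limma, 1 at an unadjusted p under 0.05, with a median of -0.02. Epithelial junctions had 1 of 14 lower (7.14%, against 0.311% of all genes), DSP, and 0 higher (median -0.12). Beside DSP, GJA1, a gap junction connexin, had 0.11 and 0.67 in Snail and 0.01 and 0.47 in Slug, against 0.82 and 1.18 in E47 (-0.69 ± 0.23; adjusted p = 0.257). Of other desmosome genes, DSG2 differed by -0.45, DSC2 by 0.05 and JUP by -0.05. None of these passed, and their distance from DSP was not tested. Keratins and differentiation genes had 0 of 13 passing in limma, with 3 at an unadjusted p under 0.05; KRT7, a keratin of simple epithelia, had -1.02 and -0.98 in Snail and -0.42 and 0.06 in Slug, against -1.43 and -1.25 in E47 (0.75 ± 0.18; adjusted p = 0.136).

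Mesenchymal markers had 0 of 11 passing in limma, 2 at an unadjusted p under 0.05 (median -0.21). Collagens and matrix proteins had 1 of 31 higher (3.23%, against 0.0283% of all genes), LUM, and 0 lower (median 0.10). Within that list COL1A2, a chain of type I collagen, went the other way, with 1.87 and 2.11 in Snail and 1.25 and 1.94 in Slug, against 2.59 and 3.45 in E47 (-1.23 ± 0.28; adjusted p = 0.130). Integrins and focal adhesion had 2 of 23 lower (8.70%, against 0.311% of all genes), ITGA7 and ITGA6, and 0 higher, at a median of 0.01. In 4 of 23 members (17.4%, against 9.87% of all genes) the zinc finger replicates lay below both E47 replicates, among them VCL, vinculin (-0.53; adjusted p = 0.241).

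Proteases and inhibitors had 0 of 21 passing in limma, 3 at an unadjusted p under 0.05. TGF-beta and BMP signalling had 0 of 28 passing, 7 (25.0%, against 12.2% of all genes) at an unadjusted p under 0.05; SMAD7, an inhibitor of that pathway, had -0.15 and -0.03 in Snail and 0.07 and 0.21 in Slug, against 0.70 and 0.91 in E47 (-0.78 ± 0.15; adjusted p = 0.100), and SMAD3, a transducer, had 0.46 and 0.12 in Snail and 0.59 and 0.37 in Slug, against -0.59 and -0.19 in E47 (0.77 ± 0.19; adjusted p = 0.138). The inhibitor and the transducer lay on opposite sides of E47 without passing. Wnt signalling had 0 of 26 passing, 4 at an unadjusted p under 0.05, among them FZD6, a Frizzled receptor (-0.96; adjusted p = 0.0967), and MYC (-1.08; adjusted p = 0.100). MYC had -1.24 and -2.02 in Snail and 0.01 and -0.18 in Slug, against 0.22 in both E47 replicates, and Snail minus Slug was -1.55 ± 0.26 (adjusted p = 0.0127).

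In the growth factor and receptor list 2 of 37 were lower (5.41%, against 0.311% of all genes), SPRY2 and EREG, and 0 higher (median -0.09). Cell cycle genes had 1 of 46 lower (2.17%, against 0.311% of all genes), GAS1, and 0 higher (median -0.03). Glycolysis and lipid genes had 1 of 15 lower (6.67%, against 0.311% of all genes), PPARG, and 0 higher (median -0.01). Angiogenesis and hypoxia had 0 of 16 passing in limma (median -0.20), with 5 (31.2%, against 12.2% of all genes) at an unadjusted p under 0.05. Among them was VEGFC, with 0.39 and 0.55 in Snail and 0.07 and 0.19 in Slug, against 0.76 and 1.02 in E47 (adjusted p = 0.157). Stress genes had 0 of 16 passing, 4 at an unadjusted p under 0.05, among them the metallothionein genes MT1X and MT2A (-0.83; adjusted p = 0.100), while MT1E of the same family differed by 0.01.

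In limma 0 of 28 apoptosis genes, 0 of 24 interferon genes and 0 of 15 ribosome and translation genes passed, with 4, 0 and 3 at an unadjusted p under 0.05. Of the markers of other cell types, 0 of 10 leukocyte genes passed (median 0.02, from -0.71 to 0.31; 1 at an unadjusted p under 0.05) and 0 of 10 endothelial genes (median -0.01, from -0.46 to 0.24; 0 at an unadjusted p under 0.05).

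**Figure D5:**
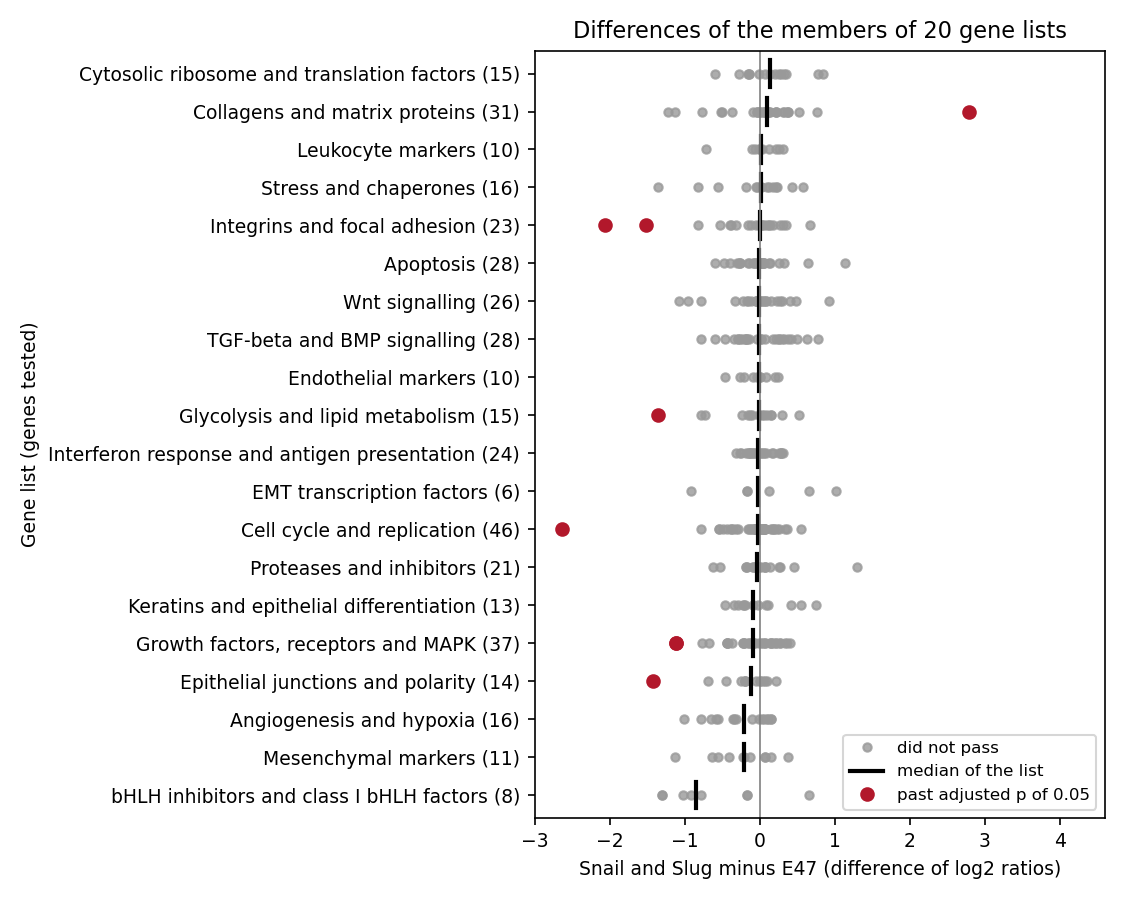
Difference of log2 ratios, Snail and Slug minus E47 (horizontal axis), of each member tested in 20 gene lists (vertical axis, members tested in brackets), with medians as bars and genes past adjusted p of 0.05 in red. The helix-loop-helix list has the lowest median (-0.85), and the red points are 1 or 2 genes each of lists whose medians lie between -0.12 and 0.10.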

How the data were processed

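RNA of MDCK transfectants and MDCK-CMV control was hybridised on 12 2-colour arrays, per the labels' protocols. The authors deposited log2 ratios of the 2 channels for 13056 probes, empty where missing; that they are log2 was checked on the values (antilogs below -0.5 fall on whole thousandths within 6e-05 for 100.0%). Array medians lay between -0.06 and 0.06. Numerator, background correction, normalisation and filter: not given in the sources used here. Signal over background is unknown, and precision is limited by the number of arrays.

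Probes with 1 symbol (8047; 276 had several, 4733 none) gave 4325 genes. Signs were turned, spots averaged per clone, clones per gene, and both arrays per numbered sample. limma 3.58.1 in R 4.3.3 fitted 3 groups over 4216 genes (3 residual degrees of freedom, prior degrees of freedom 4.85), two-sided, with Benjamini-Hochberg adjustment over 3537 genes with all 6 replicates; it was tested on simulated data. Named were the 12 largest passing differences per direction with non-overlapping groups (filled to 5 by p), passing list members, SNAI1, TCF3, CDH1 and ID1 to ID4. SNAI2 was also to be named but had no probe with its symbol alone. Members and lists were chosen with earlier results of these data known. Alternatives covered scaling, centring, averaging, dyes, signs, blocks, moderation and left-out replicates.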

Additional observations from a re-analysis of the deposited data

Results flagged for a closer look

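Among the 23 named genes, 5 differed between Snail and Slug in limma, so their distance from E47 was not the same in both zinc finger transfectants: Snail minus Slug was -1.23 for ITGA6, -0.84 for DSP, -1.77 for LUM, -0.71 for SH3KBP1 (adjusted p = 0.0355) and -1.17 for TCF3. Over all genes tested, 486 of 3675 (13.2%) differed between Snail and Slug, 336 of them lower in Snail. In all 5 named genes Snail lay below Slug, the direction that most of those genes had.

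In 3 of 69 groups of 4 arrays 1 array lay far from the others, where chance gives about 1 in 20. GAS1 was at 0.14 on the Cy5-titled array of Snail 1, with the other Snail arrays at 0.24 to 0.26. LUM was at -0.27 on the Cy3-titled array of E47 1, with the other E47 arrays at 0.38 to 0.50. ID2 was at -0.19 on the Cy3-titled array of Snail 1, with the other Snail arrays between -0.05 and -0.02.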

How the results depend on the processing

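All 12 genes kept their direction in the 20 alternatives run on genes, and GAS1 kept its call in each (-3.22 to -2.39). Much of the kept direction was fixed in advance. Several alternatives change only the error estimate and leave the difference as it is. With 1 replicate left out, the naming rule, which asks for non-overlapping groups, fixes the sign. Turned signs were not among the 20. The count of 12 genes became 19 with arrays scaled to 1 spread, 19 with clones fitted singly, 20 with array orientation as a covariate and 125 with 12 arrays and the numbered sample as a random block, each time with all 12 among them. It became 19 (9 shared) with Cy5-titled arrays alone and 3 (2 shared) with Cy3-titled arrays alone, 1 at adjusted p of 0.01 and 1 with Snail and Slug as 1 group. With robust moderation and a trend 15 passed (9 shared), and DSP, SPRY2 and LUM lost their calls (adjusted p = 0.116, 0.116 and 0.115). Chosen after seeing the data, moderation over genes with all 6 replicates gave 20, and E47 1 read from its Cy5-titled array gave 57. Leaving out 1 replicate gave 4 to 16 genes, 4 without Snail replicate 2 or E47 replicate 2 (4 and 2 of the 12 among them), 11 without Snail replicate 1 (8 of the 12) and 14 without E47 replicate 1 (5 of the 12). Without E47 replicate 2, ITGA7, GNAI1 and LUM were among the lost calls (adjusted p = 0.0976, 0.0835 and 0.0501), and a lone replicate is assumed to vary like the others. With the sign of E47, Snail or Slug turned the counts were 704, 87 and 527, and with signs by the labels (Cy5 over Cy3) limma called 0, with 108 genes at an unadjusted p under 0.05. The cause of these shifts was not tested. The CDH1 difference reversed to 0.18 with scaling, and across left-out replicates lay between -0.476 and 0.0905 (positive without E47 replicate 1), and it was 0.064 with E47 1 from its Cy5-titled array. With the replicate block 16 genes passed, all 12 among them; deviations of same-numbered samples correlated with r = 0.02 (Snail and Slug), 0.23 (Snail and E47) and -0.07 (Slug and E47), so the deviations did not go together in every pair of groups and the numbers were not taken to pair the samples. Snail minus Slug, 486 genes, ranged from 88 to 823 over 19 alternatives. The filter on dim probes could not be varied, as the values hold no signal.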

Other observations

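With E47 turned in sign, the difference of GAS1 would be 3.27, of ITGA7 2.16, of GNAI1 2.63, of SPRY2 2.29, of EREG 0.76, of C8orf76 0.53 and of APLP2 0.19, so 7 of the 12 would lie on the other side of E47. The differences of LUM (3.29), DSP (-2.76), PPARG (-0.46), ITGA6 (-0.33) and PLA2G7 (-0.05) would keep their sign, the last 3 at a smaller size.

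The difference between the Cy5-titled and the Cy3-titled array of a numbered sample, after turning, correlated across genes with r = 0.47 between Snail 1 and E47 1, and with r between -0.14 and 0.21 in the other 14 pairs of samples; its part in the results was not tested.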
